A study of Cavia porcellus with 9 samples.

Results

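Glutamate is the transmitter of the through pathway of the retina, from photoreceptors to bipolar cells to ganglion cells. The genes described here encode its receptors and transporters: 30 of the 19962 genes in the deposited count table, chosen by name. They are the AMPA, delta, kainate, NMDA and metabotropic receptor genes that the table lists by symbol, the vesicular transporters Slc17a6, Slc17a7 and Slc17a8, and the plasma membrane transporters Slc1a1, Slc1a2, Slc1a6 and Slc1a7, with a count in at least 3 libraries. Grm6, the receptor of ON bipolar cells, was left out by that choice of names. All 30 had a count in all 9 libraries, with a lowest count of 8 in Grin2c and of 50 in the other 29, and all 30 passed the filter on low counts.

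The retinas came from male tri-color guinea pigs of the Dunkin-Hartley strain, which lived for 8 weeks in green, in blue or in white light on a 12:12 light cycle and are labelled as 12 weeks old. There are 3 libraries for each light, and white light is the reference here. The sample titles begin with 6 different labels, 2 for each light, taken here to stand for animals. Libraries 1 and 2 of green share a label, as do libraries 2 and 3 of blue and libraries 1 and 2 of white. These pairs are not alike in the letters od or os, taken here to mark the eye. Both titles of the green pair carry od, while the blue pair and the white pair each hold od and os. Whether the green pair came from 1 eye was not tested. The suffix -B, which the labels do not explain, marks white library 3 and green library 1. No allele, drug, lens or wavelength is named in the labels. The question, as the series title puts it, concerns colour-dependent focus and the control of refractive development, and for these genes it becomes whether glutamate transmission genes differ in level between lights.

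Photoreceptors release glutamate steadily in darkness and less in light. Slc17a transporters load it into vesicles, Slc1a transporters take it back up from the cleft, and AMPA and kainate receptors carry the fast response of OFF bipolar, horizontal, amacrine and ganglion cells. NMDA receptors act mainly on ganglion and amacrine cells, and metabotropic receptors tune release and excitability through G proteins.

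None of the 30 genes differed between lights at an adjusted p under 0.05 in edgeR's quasi-likelihood test, in any of the 3 comparisons or in the joint test of all 3 lights. The main vesicular transporter gene Slc17a7, the obligatory NMDA subunit gene Grin1 and the AMPA subunit gene Gria1 had the smallest ratios of the highest to the lowest library, with 1.12 for Gria1 and 1.18 for Slc17a7. Among the genes with the smallest unadjusted p were Slc1a1 and Grin3a, both higher in blue than in white, and Slc1a7 and Gria2, both higher in green than in blue. For Grin2a, Grin2b and Slc17a6, green and white light each held libraries near the top and near the bottom of the whole range.

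Libraries held between 62155041 and 74979806 counts. In them 3 counts, the limit that a count of 0 allows, correspond to 0.04 to 0.0483 CPM (counts relative to library size) before TMM scaling. All other CPM given here are scaled by TMM factors. Defining markers of the retina's own cells were present in all libraries: the summed level of 5 photoreceptor markers ran from 49886 to 65891 CPM, that of 6 bipolar markers from 1300.0 to 1471 CPM and that of 7 ganglion cell markers from 1256 to 1484 CPM. Arr3 and Crx were not analysed here under those names. Markers of the pigment epithelium, the layer behind the retina, were present too. All 9 were detected, Dct in 8 libraries, Tyrp1 in 7 and the others in all. Their summed levels were 215 to 672 CPM in green, 464 to 651 CPM in blue and 282 to 688 CPM in white. In a bulk sample, fewer cells of a type and less RNA per cell cannot be told apart. Libraries whose titles begin with the same label may come from 1 animal, so the p-values measure the spread between libraries, which may be technical in part.

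Of the vesicular transporters, Slc17a7 encodes VGLUT1, which fills the vesicles of photoreceptors and bipolar cells. It was at 1259, 1481 and 1479 CPM in green libraries 1 to 3, 1260.3, 1482 and 1382 CPM in the blue ones and 1306, 1456 and 1440.0 CPM in the white ones. The groups overlapped, and the 95% interval of the green minus white difference ran from -0.19 to 0.20 on the log2 scale and that of blue minus white from -0.22 to 0.17. Slc17a6 encodes VGLUT2, the transporter of ganglion cells. Its levels were 32.95, 29.8 and 20.4 CPM under green light, 22.3, 25.8 and 23.97 CPM under blue light and 29.8, 19.8 and 31.6 CPM under white light, so that library 3 of green and library 2 of white were below all blue libraries and the other green and white libraries above all blue ones. Slc17a8 encodes VGLUT3, found in a class of amacrine cells. It was at 8.03, 8.57 and 7.63 CPM under green light, 6.87, 9.70 and 8.16 CPM under blue light and 7.78, 7.79 and 8.61 CPM under white light, with the highest and the lowest library both under blue light.

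Of the 4 plasma membrane transporter genes, 0 passed in any comparison in edgeR. Slc1a2 encodes GLT-1, which in mammalian retina is found in cones and bipolar cells. It was at 342, 256 and 254 CPM under green light, 307, 225 and 264 CPM under blue light and 319.6, 217 and 277 CPM under white light, with library 1 the highest of each light and overlap of all groups. Slc1a7 encodes EAAT5, the transporter with a large chloride conductance at the terminals of photoreceptors and rod bipolar cells. Its levels were 134, 167 and 172 CPM under green light, 120.5, 144 and 136 CPM under blue light and 143, 154 and 141 CPM under white light. Libraries 2 and 3 of green were the highest of all, while library 1 of green lay within the blue range. Green exceeded blue by 0.24 ± 0.10 (SE) on the log2 scale, the smallest unadjusted p of the 30 genes in that comparison (0.042; edgeR adjusted p = 0.685).

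Slc1a1 encodes EAAT3, a neuronal transporter of glutamate and cysteine. It stood at 26.4, 23.4 and 27.9 CPM under blue light, 20.8, 22.97 and 18.8 CPM under white light and 24.7, 25.3 and 18.9 CPM under green light. Every blue library was above every white one, by 0.31 ± 0.13 (SE) on the log2 scale, and library 3 of green was as low as library 3 of white. The difference between blue and white did not pass (unadjusted p = 0.0375; edgeR adjusted p = 1). Slc1a6, which encodes EAAT4, best known from Purkinje cells of the cerebellum, ranged from 8.54 to 12.9 CPM (median 10.3), with overlap between all lights.

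**Figure D1:**
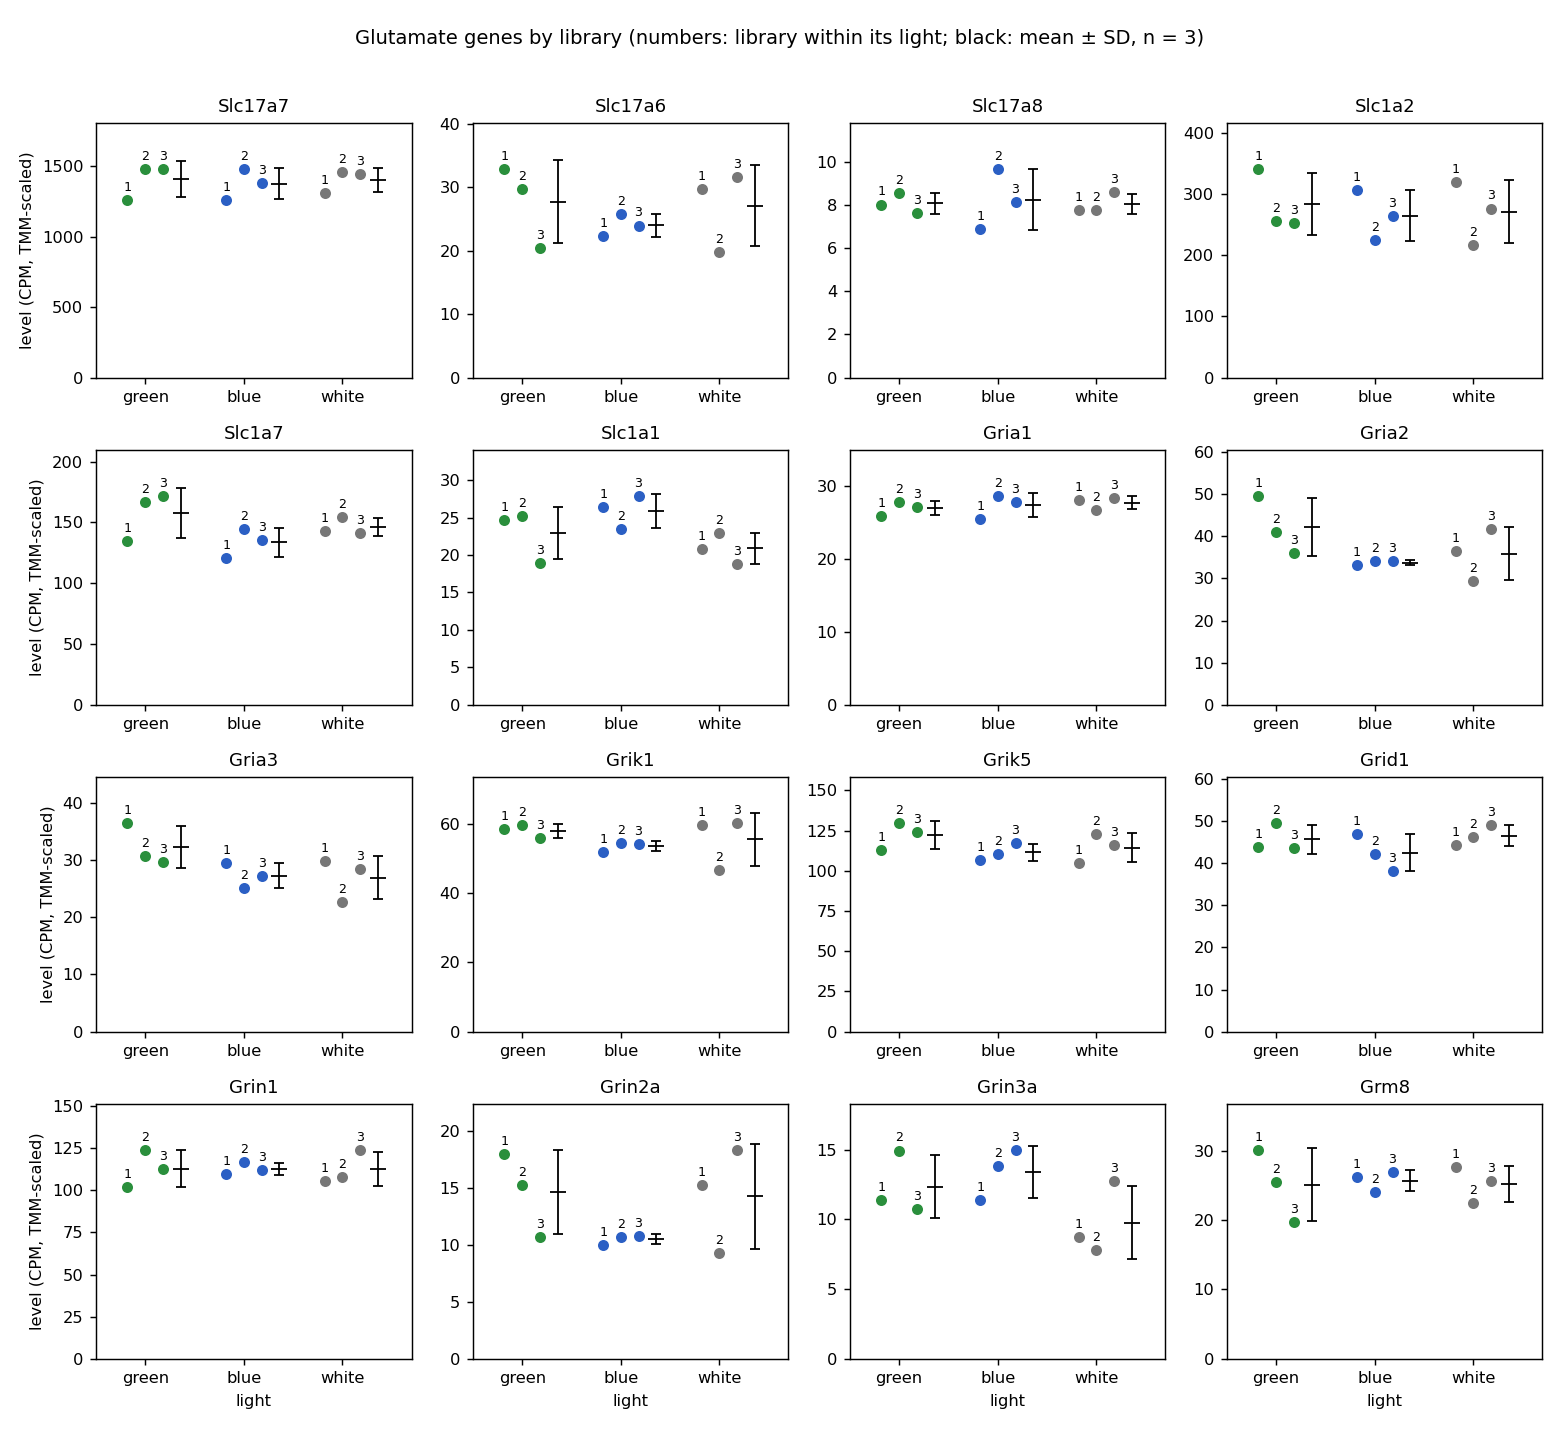
Level in CPM (vertical axis, linear from 0) of 16 of the 30 genes in each library, by light. Coloured points are single libraries numbered within their light, and black marks give the mean ± SD of 3 libraries. Slc17a7, Gria1 and Grin1 vary little in any light, Grin3a is lowest in libraries 1 and 2 of white, and Slc17a6 and Grin2a spread widely within green and within white.

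AMPA receptors carry fast excitation onto OFF bipolar, horizontal, amacrine and ganglion cells. Gria1 was the steadiest of the 30 genes over the 9 libraries, at 25.96, 27.9 and 27.2 CPM under green light, 25.5, 28.7 and 27.9 CPM under blue light and 28.1, 26.8 and 28.4 CPM under white light, a ratio of highest to lowest of 1.12. Gria2 encodes the subunit whose RNA editing makes AMPA channels nearly impermeable to calcium. It was at 49.7, 40.96 and 36.1 CPM under green light, 33.2, 34.1 and 34.1 CPM under blue light and 36.6, 29.3 and 41.8 CPM under white light. All 3 green libraries exceeded all 3 blue ones, by 0.32 ± 0.14 (SE) on the log2 scale, and the white libraries spanned values from below blue to within green. The difference had an unadjusted p of 0.0431 and an edgeR adjusted p of 0.685.

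Gria3 encodes another AMPA subunit. Its levels were 36.5, 30.7 and 29.6 CPM under green light, 29.5, 25.1 and 27.3 CPM under blue light and 29.8, 22.6 and 28.4 CPM under white light. The lowest green library lay just above the highest blue one and just below the highest white one. Green differed from blue by 0.24 ± 0.13 (SE) and from white by 0.26 ± 0.13 (SE) on the log2 scale, with edgeR adjusted p of 0.731 and 0.854. Gria4, whose row carries a locus number in place of a symbol and which is therefore not among the 30, was at 42.3, 35.5 and 31.8 CPM under green light, 36.1, 31.2 and 36.1 CPM under blue light and 36.5, 25.9 and 36.3 CPM under white light. As for Gria2 and Gria3, library 1 of green was the highest and library 2 of white the lowest.

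Among the kainate receptor genes, Grik1 encodes GluK1, a subunit that OFF bipolar cells use to read photoreceptor release. It was at 58.6, 59.6 and 55.7 CPM under green light, 51.8, 54.5 and 54.2 CPM under blue light and 59.6, 46.6 and 60.3 CPM under white light. The 3 green libraries were slightly above the 3 blue ones, and white held both the lowest and the highest library. Grik5 encodes a high-affinity subunit that needs a partner such as GluK1 to form a channel. It was at 113, 129.8 and 124 CPM under green light, 107, 111 and 117 CPM under blue light and 105, 122.5 and 116 CPM under white light, with a green minus white difference of 0.10 ± 0.09 (SE) on the log2 scale (edgeR adjusted p = 0.965).

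Grik4, the other high-affinity subunit gene, was low but very even within each light: 4.96, 4.99 and 4.69 CPM under green light, 4.52, 5.03 and 4.94 CPM under blue light and 4.13, 3.84 and 4.10 CPM under white light. Every green and every blue library exceeded every white one. The log2 differences from white were 0.28 ± 0.14 (SE) in green and 0.26 ± 0.14 (SE) in blue, with unadjusted p of 0.0776 and 0.0927 and edgeR adjusted p of 0.882 and 1. These comparisons share the 3 white libraries. The SD over 3 libraries was at most 0.275 CPM in any light. Grik2 ranged from 20.7 to 30.98 CPM (median 25.8) and Grik3 from 13.2 to 20.3 CPM (median 16.1), with overlap between all lights.

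Delta receptors are related in sequence to the others, but glutamate does not open them, and they link to presynaptic neurexins through cerebellins. Grid1 overlapped between all lights, at 43.8, 49.6 and 43.6 CPM under green light, 46.9, 42.2 and 38.1 CPM under blue light and 44.2, 46.2 and 49.1 CPM under white light.

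NMDA receptors are built from Grin1 with glutamate-binding Grin2 or glycine-binding Grin3 subunits. Grin1 was at 102, 124 and 113 CPM under green light, 109, 117 and 112 CPM under blue light and 106, 108 and 124 CPM under white light. Its group means were 113 ± 11.1, 113 ± 3.60 and 113 ± 10.03 CPM (SD, n = 3) in green, blue and white, and the 95% interval of green minus white ran from -0.20 to 0.21 on the log2 scale. Grin2a, the main Grin2 subunit gene of mature synapses, was at 17.9, 15.3 and 10.6 CPM under green light, 9.97, 10.7 and 10.8 CPM under blue light and 15.2, 9.25 and 18.3 CPM under white light. The blue libraries were close together and low, whereas green and white each held high and low libraries. The log2 differences of 0.48 ± 0.24 (SE) for green minus blue and -0.44 ± 0.24 (SE) for blue minus white did not pass (edgeR adjusted p = 0.72 and 1).

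Grin2b, a subunit gene prominent in developing synapses, had few counts, from 50 to 187 in a library. It was at 2.40, 2.65 and 0.999 CPM under green light, 0.701, 1.56 and 0.954 CPM under blue light and 1.83, 0.939 and 2.80 CPM under white light. The highest and the lowest library differed 3.99-fold, the widest range of the 30 genes. Blue minus white was -0.79 ± 0.47 (SE) and green minus blue 0.91 ± 0.47 (SE) on the log2 scale, with edgeR adjusted p of 1 and 0.729. Grin2c had the fewest counts of the 30 genes, 8 to 28 per library. Its levels of 0.308, 0.327 and 0.399 CPM under green light, 0.267, 0.353 and 0.117 CPM under blue light and 0.324, 0.159 and 0.129 CPM under white light overlapped, and the interval of green minus white, -0.58 to 2.08 on the log2 scale, allowed changes in either direction. Grin2d, whose subunit gives slowly closing channels, was at 8.93, 12.9 and 10.9 CPM under green light, 10.3, 10.5 and 9.20 CPM under blue light and 11.3, 13.5 and 11.00 CPM under white light. Here the 3 blue libraries were all below the 3 white ones (log2 difference -0.25 ± 0.15 (SE), edgeR adjusted p = 1).

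Grin3a and Grin3b encode the glycine-binding subunits that lower the calcium permeability of NMDA channels. Grin3a was at 11.4, 14.9 and 10.7 CPM under green light, 11.4, 13.8 and 14.99 CPM under blue light and 8.77, 7.83 and 12.7 CPM under white light. Libraries 1 and 2 of white, which share a label, were the lowest of all. Library 3 of white lay within the range of the other lights. The log2 differences from white were 0.46 ± 0.20 (SE) in blue and 0.34 ± 0.20 (SE) in green, and neither passed (unadjusted p = 0.0439 and 0.119; edgeR adjusted p = 1 and 0.913). Grin3b was at 3.10, 3.55 and 3.68 CPM under green light, 2.48, 2.93 and 2.66 CPM under blue light and 2.84, 4.10 and 3.10 CPM under white light. Green lay above blue in all libraries, by 0.36 ± 0.20 (SE) on the log2 scale (edgeR adjusted p = 0.74), and blue minus white was -0.32 ± 0.20 (SE), with edgeR adjusted p of 1.

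Metabotropic receptors act through G proteins: Grm2, Grm3, Grm4, Grm7 and Grm8 through Gi/o, largely at presynaptic terminals. Grm8, a presynaptic autoreceptor, was at 30.1, 25.5 and 19.7 CPM under green light, 26.2, 24.1 and 26.9 CPM under blue light and 27.6, 22.5 and 25.7 CPM under white light, with the highest and lowest library both under green light. Grm7, the receptor of presynaptic active zones, was at 16.2, 20.2 and 18.9 CPM under green light, 22.6, 19.4 and 17.1 CPM under blue light and 22.6, 22.3 and 19.1 CPM under white light (green minus white -0.21 ± 0.13 (SE) on the log2 scale, edgeR adjusted p = 0.923). The green and white libraries overlapped. Grm2 was at 5.32, 6.72 and 6.76 CPM under green light, 7.93, 7.35 and 7.47 CPM under blue light and 7.04, 6.66 and 5.66 CPM under white light. All 3 blue libraries exceeded all others, with a green minus blue difference of -0.27 ± 0.15 (SE) on the log2 scale (edgeR adjusted p = 0.74). Grm3 ranged from 13.1 to 22.9 CPM and Grm4 from 22.2 to 27.8 CPM over the 9 libraries, with overlap of all lights. Grm5, which like Gria4 is listed by a locus number, was at 2.77, 2.12 and 1.95 CPM under green light, 1.61, 1.51 and 1.51 CPM under blue light and 2.25, 1.49 and 2.09 CPM under white light (green minus blue 0.56 ± 0.24 (SE) on the log2 scale, edgeR adjusted p = 0.683).

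Between green and white light, 0 of the 30 genes passed the adjusted threshold, where 0.00646% of the 15469 genes tested did. At an unadjusted p under 0.05 stood 0 of the 30, against 5.81% of all genes (3.52% higher and 2.29% lower in green). The 3 green and 3 white libraries did not overlap for 1 of the 30 (Grik4, higher in green), against 10.1% of all genes (5.34% higher and 4.74% lower). DESeq2 and limma voom called 0 of 30 as well, with 0 and 1 at an unadjusted p under 0.05. The signs leaned to green: 23 of 30 were above 0, with a median log2 difference of 0.0636, where 52.4% of all genes were above 0 with a median of 0.0090. That count was 15 of 30 without library 2 of green, 16 of 30 without library 2 of white and 18 of 30 with counts summed per animal label. The 9 pigment epithelium markers were all lower in green than in white by sign, with 0 past the adjusted threshold in edgeR and overlapping summed levels. With their mean level in the fit as a covariate, the count of genes above 0 was again 23 of 30 and the count of called genes 0. The sizes moved in both directions: the log2 difference went from 0.26 to 0.19 for Gria3 and from 0.23 to 0.16 for Gria2. For Grin3a it went from 0.34 to 0.36. The part of the pigment epithelium in these differences was not tested.

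Between blue and white light, 0 of 30 passed, where 0.00646% of all genes did. At an unadjusted p under 0.05 stood 3 of the 30, Slc1a1 and Grin3a among them and all higher in blue, against 4.45% of all genes (2.47% higher and 1.98% lower in blue). The libraries did not overlap for 5 of 30 (4 higher in blue, Slc1a1, Grik4 and Grm2 among them, and Grin2d lower) against 9.9% of all genes (5.76% higher and 4.14% lower). The signs were balanced, with 13 higher and 17 lower in blue, where 51.5% of all genes were higher, and a median of -0.0258, against a median of 0.0048 over all genes. DESeq2 and limma voom called 0 of 30, with 3 each at an unadjusted p under 0.05.

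Between green and blue light, 0 of 30 passed in edgeR and 0 of all 15469 genes did (0%). Slc1a7 and Gria2, both higher in green, were the 2 of 30 at an unadjusted p under 0.05, where 7.18% of all genes reached it, 4.11% higher and 3.06% lower in green. The libraries did not overlap for 6 of 30 (Gria2, Gria3, Grik1 and Grin3b higher and 2 lower in green, Grm2 among them) against 14.2% of all genes (7.23% higher and 6.94% lower). The median log2 difference was 0.1012 with 20 of 30 above 0, against 49.4% of all genes, and it was 0.0167 with 15 of 30 above 0 without library 2 of green. DESeq2 and limma voom called 0 of 30, with 3 and 4 at an unadjusted p under 0.05. With the pigment epithelium markers as a covariate, 0 of 30 were at an unadjusted p under 0.05 in edgeR. In the joint test 1 of 30 had an unadjusted p under 0.05, against 5.94% of all genes.

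The size of change that these data leave possible differs between the genes. The intervals given here come from a fit that took the 9 libraries as independent. Libraries that share a label may come from 1 animal, so these intervals may be too narrow. The limma voom fit allowed for a correlation between libraries of the same label, estimated at -0.17. That estimate rests on 1 pair of libraries per light, and only in green do both titles of the pair carry od. The 95% interval of the difference lay wholly within a 1.5-fold change in either direction for 25 of 30 genes in green minus white, for 20 of 30 in blue minus white and for 23 of 30 in green minus blue. Grin2b and Grin2c, the genes with the fewest counts, were outside in all 3 comparisons. In blue minus white Grin2a, Grin2d, Grin3a, Grin3b, Slc1a1, Slc17a6 and Grm3 were outside as well. The median SD between libraries of the same light was 0.17 on the log2 scale for the 30 genes and 0.16 for all genes tested.

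**Figure D2:**
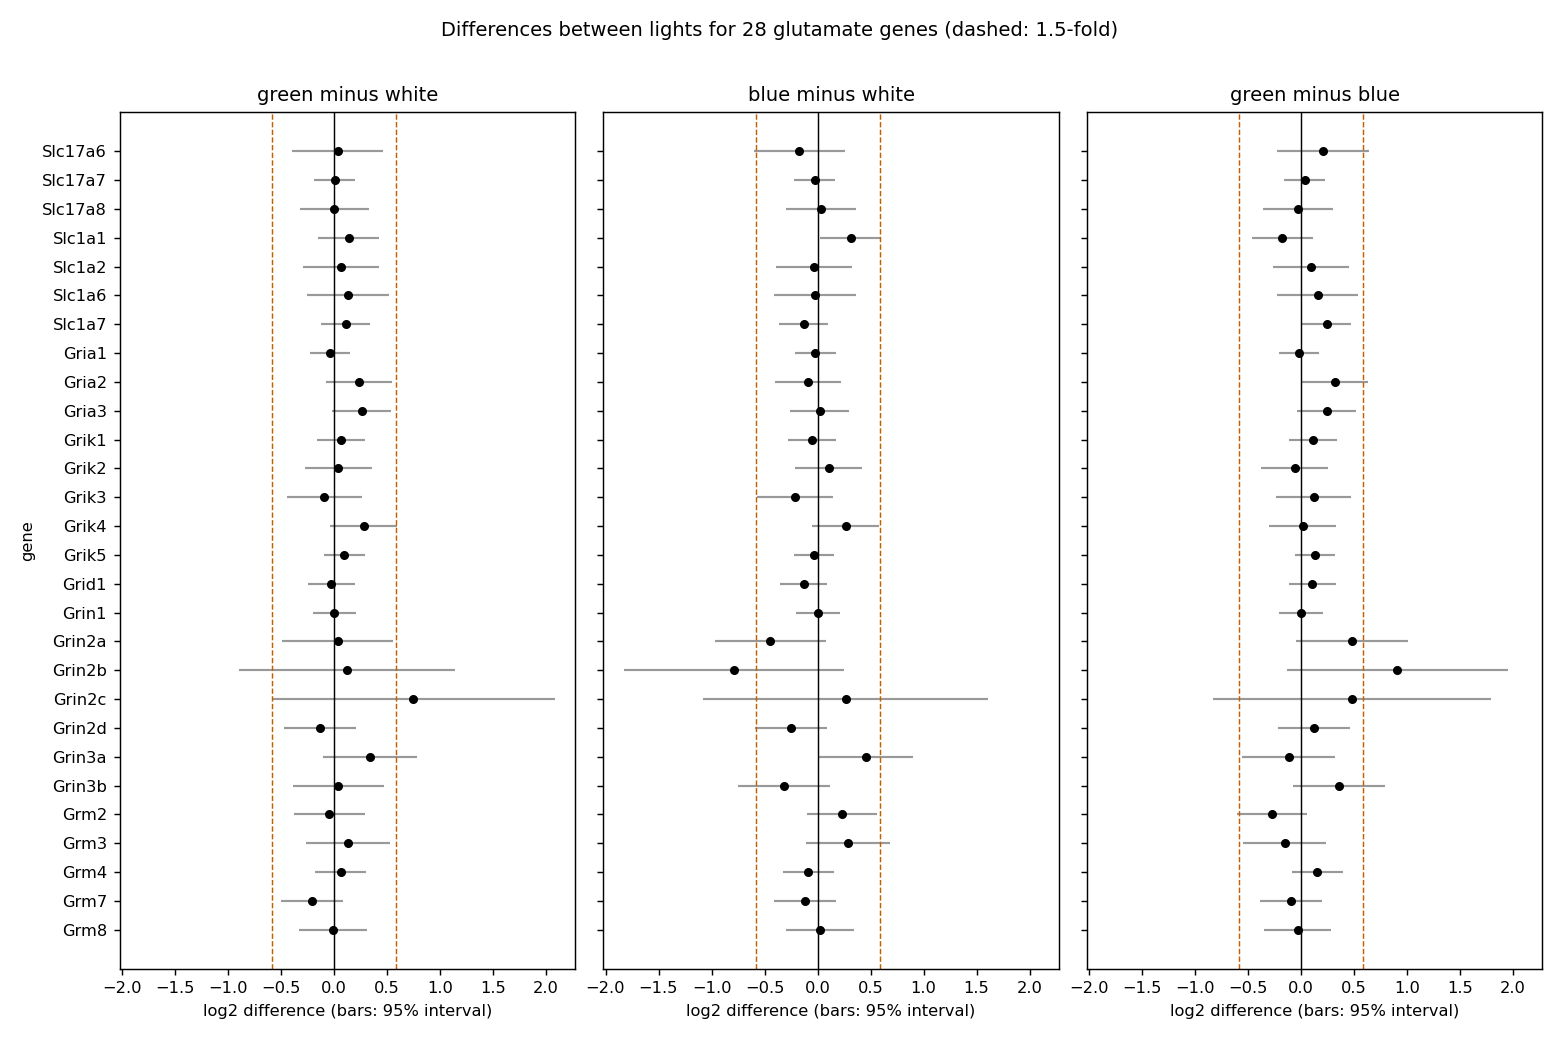
Log2 difference (horizontal axis) of 28 of the 30 genes (vertical axis) in the 3 comparisons (panels), with 95% intervals from the fit of all 9 libraries as grey bars. Dashed lines mark a 1.5-fold change. Most bars include 0 and lie between the dashed lines; those of Grin2b and Grin2c are the widest.

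**Figure D3:**
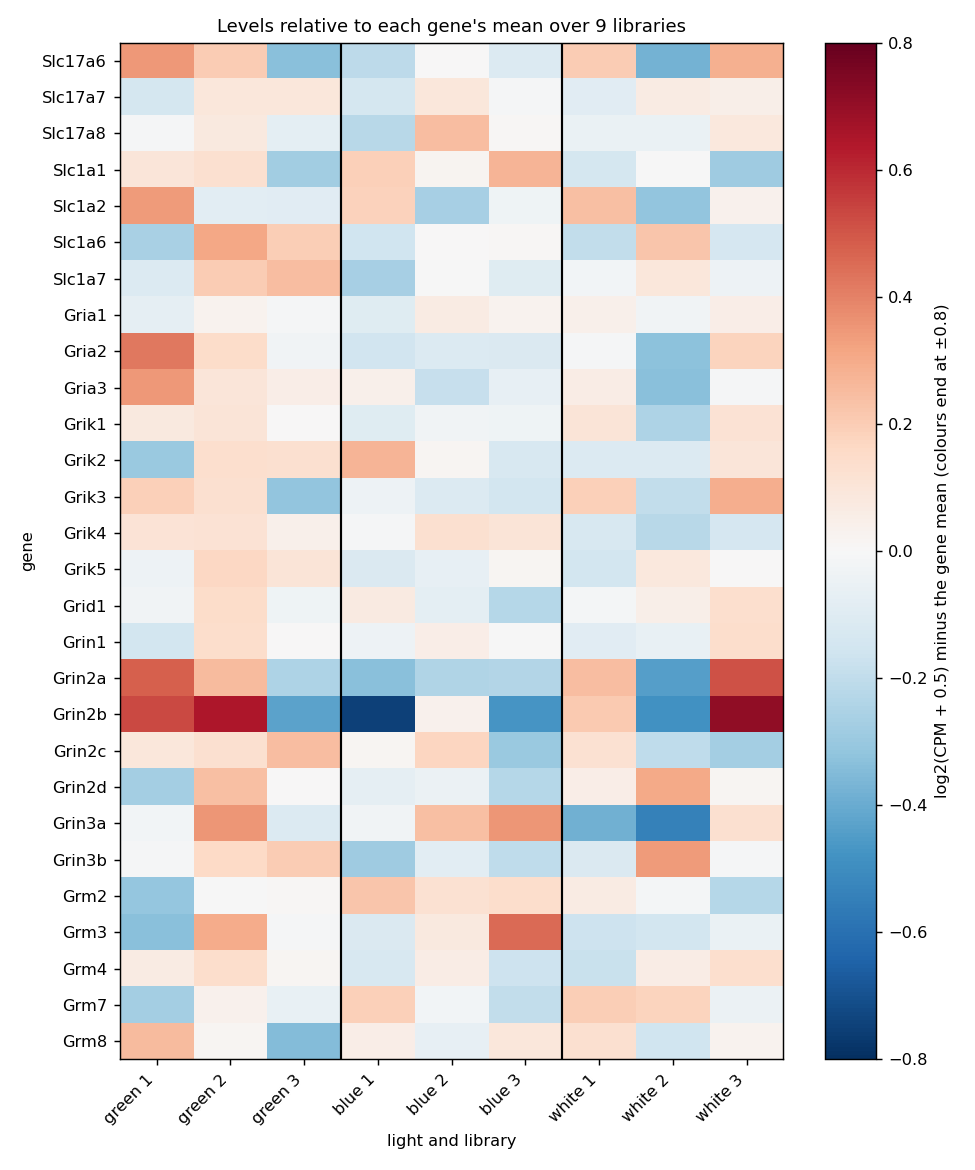
Level of 28 of the 30 genes (rows) in each library (columns), as log2(CPM + 0.5) minus the mean of that gene over the 9 libraries. Red is above and blue below the mean, and black lines part the lights. Gria2, Grin2a, Grin2b and Slc17a6 are red in libraries 1 and 2 of green and 3 of white and blue in library 2 of white, while Gria1, Grin1 and Slc17a7 stay pale throughout.

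Some genes shared the libraries in which they were high or low within a light, and 2 such sets of libraries are described here, chosen after their values were seen and not tested. The first set is library 1 of green, of blue and of white. It was the lowest for 2 of the 30 genes, where 6.19% of all genes tested had it as their lowest, and the highest for 1 of the 30, against 8.53% of all genes, so these counts are near or below the background and show nothing particular to the 30 genes. Slc17a7 was lowest in these 3 libraries (1259, 1260.3 and 1306 CPM, the others from 1382 CPM up), and so was Slc1a6, whereas Slc1a2 was highest in them. Gnat2, the transducin gene of cones, was also highest in these libraries, at 286, 254 and 273 CPM against 231 CPM or less. Library numbers follow the order of deposition, and the labels give the numbers no other meaning. The titles of these 3 libraries all carry od, as do those of library 2 of green, library 2 of blue and library 3 of white. What else these 3 libraries share was not tested.

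In the second set, libraries 1 and 2 of green and 1 and 3 of white were the 4 highest for Gria2, Grik1, Grik3, Grin2a, Grin2b and Slc17a6, which is 6 of the 30 genes, where 3.96% of all genes tested had these 4 libraries as their highest. No blue library is in this set, and its libraries 1 and 2 of green share a label. All 4 libraries of the set carry od in their titles, while library 3 of green and library 2 of white carry os. Libraries 1 and 2 of blue carry od too and are not in the set. The part of the eye in this order was not tested. Of the 107 tested genes of the marker and partner lists, 9 had the same 4 highest libraries, and they came from several cell types: Nefl and Nefm of the ganglion cell markers, Gad2 of the amacrine markers, Prkca of the bipolar markers and Onecut2 of the horizontal cell markers, with Frrs1l, Shank2, Plcb1 and Plcb4 of the partner lists. Nefm was at 278, 266 and 235 CPM under green light, 213, 235 and 237 CPM under blue light and 264, 216 and 271 CPM under white light. The other 5 of 7 ganglion cell markers (Rbpms, Sncg, Thy1, Pou4f1 and Pou4f2) did not share that order. The part of cell content in the values of Gria2, Grin2a and Slc17a6 was not tested. Slc17a6 in green minus blue had a 95% interval from -0.23 to 0.64 on the log2 scale.

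**Figure D4:**
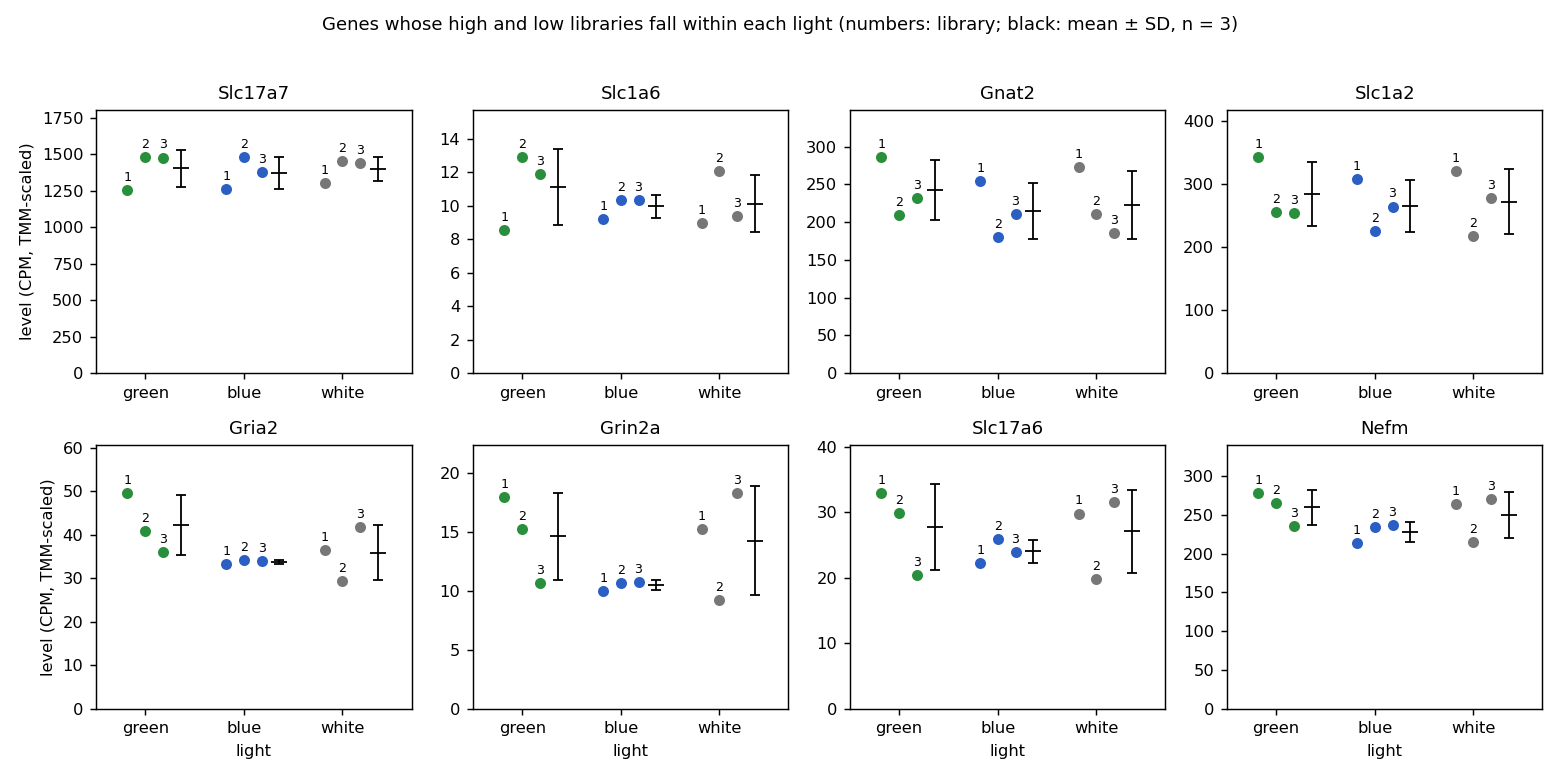
Level in CPM (vertical axes, linear from 0) by light, with libraries numbered within their light and the mean ± SD of 3 libraries in black. In the upper row library 1 of each light is lowest for Slc17a7 and Slc1a6 and highest for Gnat2 and Slc1a2; in the lower row libraries 1 and 2 of green and 1 and 3 of white are the highest for Gria2, Grin2a, Slc17a6 and Nefm.

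Genes that work with these receptors were read from 4 lists, of which 55 genes were tested. Of the AMPA and kainate auxiliary subunit genes, 0 of 21 passed in each comparison. Gsg1l, a modulator of AMPA receptors, was higher in blue than in white without overlap (12.8 ± 0.62 against 9.61 ± 0.942 CPM, SD, n = 3; edgeR adjusted p = 0.991). Pick1, which traffics AMPA receptors, was at 33.7 ± 2.31 CPM in green, 39.5 ± 3.20 CPM in blue and 37.4 ± 1.51 CPM in white (n = 3), with all green libraries below all white ones. Shisa9, another gene for an AMPA receptor auxiliary protein, differed by -0.21 ± 0.13 (SE) on the log2 scale in green minus white and Cacng7, a transmembrane regulator of AMPA receptors, by -0.10 ± 0.09 (SE) in blue minus white.

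Of the postsynaptic scaffold genes, 0 of 14 passed in each comparison. Homer2 in green minus white differed by 0.18 ± 0.12 (SE) on the log2 scale, Homer3 and Dlg4 in blue minus white by -0.26 ± 0.14 and -0.11 ± 0.08, and Dlgap3 in green minus blue by -0.24 ± 0.12. In green minus blue 11 of these 14 genes were above 0, with a median of 0.06. Of all genes tested, 49.4% were above 0 in that comparison, with a median of -0.0025.

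Of the genes of the glutamate-glutamine cycle, 0 of 12 passed. Glul, the glutamine synthetase of Müller glia, was at 3823 ± 196 CPM in green, 4086 ± 331 CPM in blue and 3827 ± 324 CPM in white (SD, n = 3). The glial uptake transporter gene Slc1a3 was at 292 ± 13.2, 274 ± 13.8 and 266 ± 40.1 CPM in the same order. The smallest unadjusted p in each comparison belonged to Slc38a2, a neutral amino acid carrier, in green minus white (-0.21 ± 0.11, SE, log2 scale) and in green minus blue (-0.25 ± 0.11), and to Slc7a11, the cystine-glutamate exchanger, in blue minus white (-0.63 ± 0.31). Next in rank were Srr, the serine racemase, in green minus white (0.29 ± 0.18) and the glutaminase gene Gls2 in blue minus white (0.21 ± 0.14) and green minus blue (-0.26 ± 0.14). Of the partners of metabotropic receptors, 0 of 8 passed: Plcb4 differed by 0.25 ± 0.22 in green minus white and 0.35 ± 0.22 in green minus blue, Plcb1 by 0.38 ± 0.20 in green minus blue, Elfn2 by -0.07 ± 0.08 and -0.13 ± 0.08 from white in green and blue, and Grasp by -0.28 ± 0.18 in blue minus white. The unadjusted counts under 0.05 over the 4 lists were 0 in green minus white, 1 in blue minus white (Gsg1l) and 2 in green minus blue (Pick1 and Slc38a2), against the shares of all genes given above.

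Grm6, the ON bipolar receptor left out of the 30, was at 497, 505 and 609 CPM under green light, 480.3, 470.2 and 459 CPM under blue light and 501, 563 and 517 CPM under white light. All 3 blue libraries were below all green and white ones, with a green minus blue difference of 0.19 ± 0.09 (SE) on the log2 scale and an edgeR adjusted p of 0.697.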

How the data were processed

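Retinal RNA of 9 guinea pig libraries was sequenced as paired ends on an Illumina HiSeq instrument, per the labels' protocols. The authors deposited raw counts per gene for 19962 genes. The sources used here do not state the aligner, counter, genome build or strand setting. Many low counts were multiples of 4, so that a count may not be 1 read, and counts divided by 4 were tried. Libraries held 62155041 to 74979806 counts.

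Genes were filtered with filterByExpr (minimum count 10, minimum total 15), which left 15469. TMM scaling and edgeR's quasi-likelihood test (edgeR 4.0.16, R 4.3.3) were fitted over all 9 libraries with light as the only term, and p-values were adjusted by Benjamini-Hochberg over all genes tested. CPM are TMM-scaled. Groups came from the treatment labels, and replicate numbers follow accession order. Of the 30 symbols, 29 matched the RefSeq table of assembly mCavPor4.1, and Grid1 did not. Genes named with values were the 8 of smallest p per comparison, a fixed set of major genes and the highest of each family. Some members, markers and partner genes are counted but not reported here by name. The members and lists were chosen with earlier results of these data known. Scripts were tested on simulated data. Alternatives were DESeq2 1.42.0, limma 3.58.1, other scalings, filters and covariates, and leaving out libraries.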

Additional observations from a re-analysis of the deposited data

How the results depend on the processing

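No gene of the 30 was called in any comparison under any of the 21 alternatives, and none of the 999 alternative values of the named genes changed direction or passed the threshold. Leaving out 1 library in turn gave a median log2 difference of the 30 genes from -0.003 to 0.0893 in green minus white, from -0.0613 to -0.0085 in blue minus white and from 0.0167 to 0.1271 in green minus blue. The lowest of the last was without library 2 of green, and the cause was not tested. Over all genes, DESeq2 called 24, 28 and 48 genes in the same order of comparisons, where edgeR called 1, 1 and 0. Without both libraries whose titles end in -B, edgeR called 10, 12 and 0. No analysis paired between lights was possible because each label that begins the titles occurs under 1 light only. With 2 labels per light, counts summed per label left 6 samples. Counts were fewest for Grin2c, at 8 to 28 per library, and its intervals were wider than those of the other named genes in all 3 comparisons.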
